A study of Homo sapiens with 10 samples.

Results

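The BCL2 family sets the threshold for mitochondrial apoptosis, and its transcripts were followed in human U2OS osteosarcoma cells after knockdown of the DEAD-box RNA helicase DDX41. The 10 genes described were chosen by name, with earlier results of these data known. They were the pro-survival genes BCL2, BCL2L1 and MCL1, the effector gene BAK1, and the BH3-only genes BCL2L11, BID, PMAIP1, BMF, BIK and BAD. Each Ensembl identifier was matched to its GENCODE symbol, and all 10 were found among 63299 gene rows and were among the 16143 genes with enough counts to test.

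Polyadenylated RNA was sequenced from 5 U2OS libraries after control knockdown (siCtrl) and 5 after DDX41 knockdown (siDDX41), both made with pooled siRNAs and collected after 48 h. Total gene counts ran from 23393764 to 24598860 per siCtrl library and from 21807041 to 24896398 per siDDX41 library. The comparison asks how transcript levels differed once DDX41 was depleted, in 1 cell line and with 1 pool of siRNAs against the gene. Nothing in the labels says that the replicates came from separate cultures, so p-values measure the spread between these libraries, which can be technical.

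The U2OS label was checked against marker genes, as summed CPM (counts scaled by the TMM method to a common library size). Of 8 mesenchymal markers, 6 passed the filter on low counts, and the list summed to 6523 to 6817 CPM in siCtrl and 6822 to 7095 CPM in siDDX41, led by SPARC at a mean of 2994 CPM over the 10 libraries. SPARC was called higher (log2 fold change 0.18), while RUNX2, ENG and VIM were called lower (-0.40, -0.21 and -0.087). TWIST1 and NT5E, also on that list, had at most 1 and 3 counts in a library. The 5 epithelial markers summed to 8.65 to 9.71 CPM in siCtrl and 8.64 to 10.7 CPM in siDDX41, most of it EPCAM, with GRHL2 under 0.1 CPM. TERT, the telomerase gene that U2OS cells keep silent, lay between 0 and 0.174 CPM in every library. The 4 haematopoietic markers summed to 7.11 to 8.41 CPM in siCtrl and 3.95 to 4.60 CPM in siDDX41, led by CORO1A at a mean of 4.52 CPM over the 10 libraries, and CD53 had at most 4 counts in a library. CORO1A and LAPTM5 were called lower, and PTPRC, at a log2 fold change of 0.69, did not pass (adjusted p = 0.0228). The 3 endothelial markers summed to 4.66 to 5.59 CPM in siCtrl and 1.52 to 2.90 CPM in siDDX41, led by VWF at 2.77 CPM over the 10 libraries. These last sums were lower after DDX41 knockdown, and their part in the results on the BCL2 family was not tested.

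BCL2 family proteins meet at the outer membrane of the mitochondrion. Effector proteins such as BAK1 assemble into pores that release cytochrome c, pro-survival proteins hold effectors and BH3-only proteins in a bound state, and BH3-only proteins carry stress signals to both. The shared element is the BH3 domain, a short helix that fits into a groove on the surface of pro-survival proteins, where a conserved leucine and a conserved aspartate make contact.

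The coding DNA of this element is shown for each gene because it is the element that the encoded proteins share. A pattern of leucine, 3 residues of any kind, glycine, alanine or serine, and then aspartate was searched in the protein encoded by the MANE Select transcript of each gene, and 30 bases around it were read from the GENCODE transcripts on GRCh38. Capitals mark the codons of the leucine and the aspartate, and all 10 stretches lie in a single coding exon.
BCL2, chr18:63318355-63318384, minus strand, exon 2 of 3: ctgaccCTCcgccaggccggcGACgacttc
BCL2L1, chr20:31721928-31721957, minus strand, exon 2 of 3: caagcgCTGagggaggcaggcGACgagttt
MCL1, chr1:150578871-150578900, minus strand, exon 1 of 3: gagaccTTAcgacgggttgggGATggcgtg
BAK1, chr6:33575393-33575422, minus strand, exon 4 of 6: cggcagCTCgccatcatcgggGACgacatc
BCL2L11, chr2:111150097-111150126, plus strand, exon 3 of 4: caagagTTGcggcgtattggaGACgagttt
BID, chr22:17739421-17739450, minus strand, exon 4 of 6: aggcacCTCgcccaggtcgggGACagcatg
PMAIP1, chr18:59902667-59902696, plus strand, exon 2 of 2: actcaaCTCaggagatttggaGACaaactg
BMF, chr15:40104201-40104230, minus strand, exon 4 of 5: cgaaagCTTcagtgcattgcaGACcagttc
BIK, chr22:43127710-43127739, plus strand, exon 3 of 5: ctgcggCTGgcctgcatcgggGACgagatg
BAD, chr11:64271628-64271657, minus strand, exon 3 of 4: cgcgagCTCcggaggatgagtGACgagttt

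The residue before the aspartate was glycine in 8 of the 10 stretches, alanine in BMF and serine in BAD. The aspartate codon was GAC in 9 and GAT in MCL1. Over the 45 pairs of stretches, between 10 and 23 of 30 bases were the same, with a median of 15, and BAK1 and BIK were the pair with 23. BID held a second match at residues 25 to 30, at chr22:17743930-17743959, and the stretch shown is that at residues 90 to 95. The pattern is loose: 35.4% of 19061 MANE Select proteins hold a match, so that a match alone does not make a BH3 domain.

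DDX41 itself was measured at 49.1, 49.4, 47.3, 47.2 and 50.5 CPM in siCtrl replicates 1 to 5. In siDDX41 replicates 1 to 5 it was measured at 11.5, 13.7, 12.4, 11.2 and 12.3 CPM. Each knockdown library lay far below each control library, and the mean fell from 48.7 ± 1.43 to 12.2 ± 1.00 CPM (SD, n = 5 per group). The log2 fold change was -1.99 (SE 0.049, adjusted p = 4.47e-24, edgeR quasi-likelihood test with Benjamini-Hochberg adjustment over all tested genes), which left 25.1% of the control level. In bulk samples such as these, fewer cells of a type and less RNA per cell cannot be told apart.

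Among the 10 BCL2 family genes, 5 were higher after DDX41 knockdown and 2 were lower at an adjusted p under 0.01. BCL2L1, MCL1, BAK1, BID and PMAIP1 were higher, BCL2L11 and BMF were lower, and BCL2, BIK and BAD did not pass. Over all 16143 tested genes, 30.3% were higher and 32.1% were lower by the same rule. With a correction for GC content, 4 of the 10 genes were higher and 4 were lower, against 5175 and 5167 of all tested genes. With an added log2 fold change beyond 0.5 in size, 0 of the 10 genes were higher and 2 were lower, against 9.81% higher and 15.7% lower of all tested genes. BCL2L1, at 0.49, passed this cut with a correction for GC content (0.59), without siCtrl replicate 4 and without siDDX41 replicate 2. The groups did not overlap for 4 genes that were higher and 2 that were lower, against 26.7% and 29.3% of all tested genes. The median log2 fold change of the 10 genes was 0.12 and their median absolute change was 0.29, beside -0.0014 and 0.28 for all tested genes. The median absolute change of the family thus lay close to that of all tested genes.

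**Figure D1:**
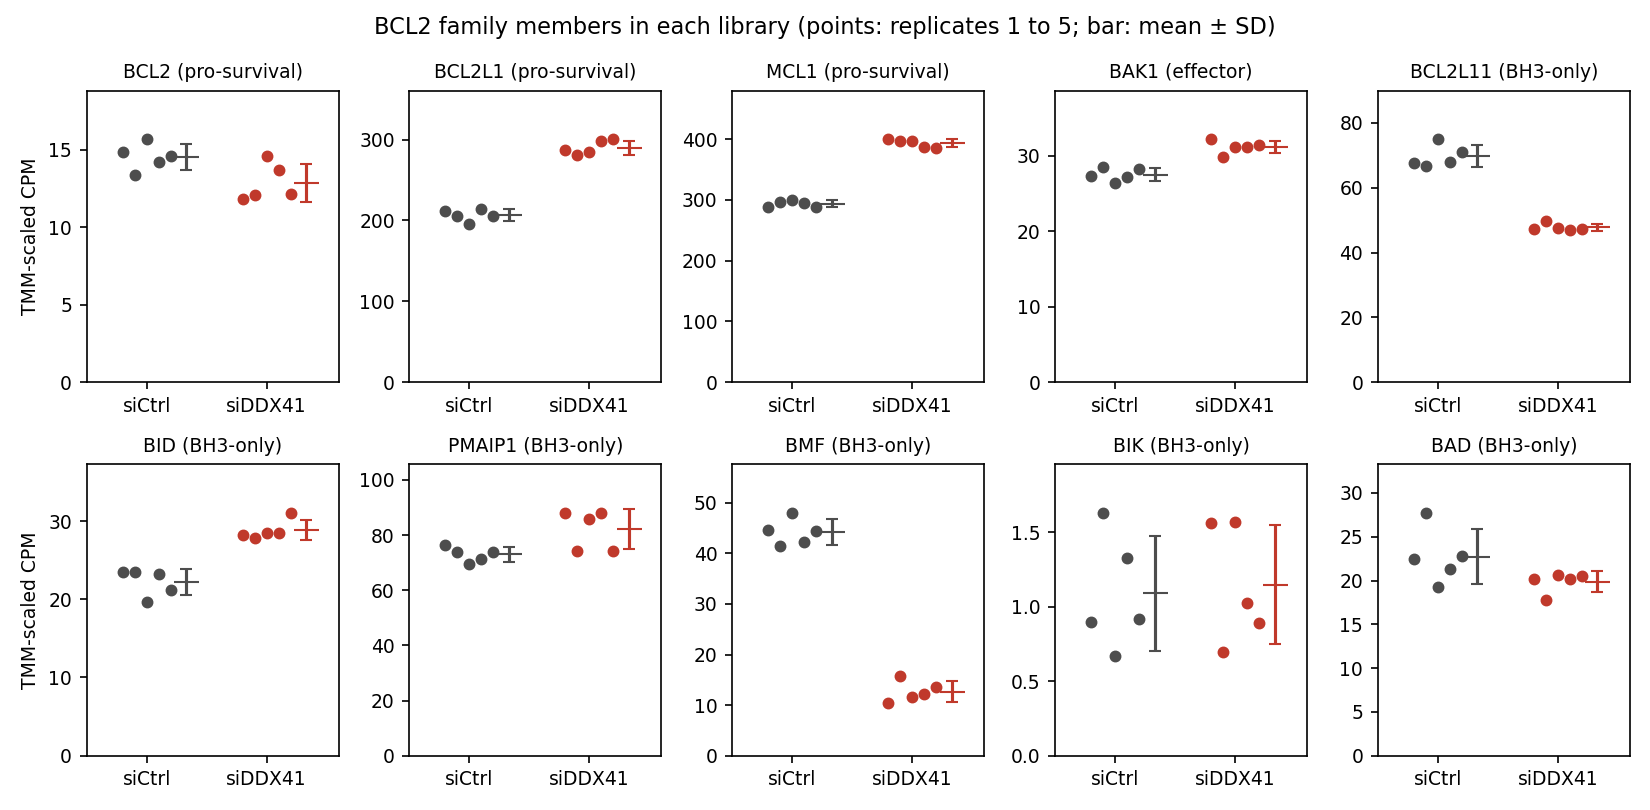
Level of each of the 10 BCL2 family genes in TMM-scaled CPM (vertical axis, from 0) in siCtrl (grey) and siDDX41 (red) libraries. Points are replicates 1 to 5 from left to right, and the bar gives the mean ± SD; BMF shows the largest fold change of the 10 genes, and BCL2, PMAIP1, BIK and BAD overlap between groups.

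Of the 3 pro-survival genes, BCL2L1 and MCL1 rose, to 140.4% and 133.8% of the control level, and BCL2 did not pass the test. BCL2L1 encodes BCL-XL, which holds effector and BH3-only proteins inactive at the mitochondrion. It was measured at 212, 206, 196, 215 and 205 CPM in siCtrl replicates 1 to 5. The 5 siDDX41 replicates gave, in the same order, 287, 281, 285, 298 and 301 CPM. The lowest knockdown library lay well above the highest control library. The mean rose from 207 ± 7.24 to 290.2 ± 8.69 CPM (SD, n = 5), a log2 fold change of 0.49 (SE 0.029, adjusted p = 3.57e-15). The gene yields a long pro-survival and a short pro-apoptotic splice form, which gene counts do not separate. Of its exon bases, 41.3% overlap the long non-coding RNA gene ABALON on the opposite strand, whose counts were 0.0972% of those of BCL2L1.

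MCL1 encodes a short-lived pro-survival protein that binds BAK1, BIM and NOXA. Its level in siCtrl replicates 1 to 5 was 288, 297, 300.3, 295 and 288 CPM. Values in siDDX41 replicates 1 to 5 were 400.1, 397, 397, 387 and 385 CPM. The groups were far apart, with 5 of 5 knockdown libraries above all control libraries. The mean rose from 294 ± 5.52 to 393 ± 6.67 CPM (SD, n = 5), a log2 fold change of 0.42 (SE 0.025, adjusted p = 5.05e-15).

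BCL2, the founding member of the family, was measured at 14.8, 13.4, 15.7, 14.2 and 14.6 CPM in siCtrl replicates 1 to 5. The knockdown replicates, from 1 to 5, stood at 11.8, 12.1, 14.6, 13.7 and 12.1 CPM. Replicates 1, 2 and 5 of the knockdown lay below every control library, while replicates 3 and 4 lay inside the control range. The log2 fold change was -0.17, with a 95% interval from -0.32 to -0.03, and the adjusted p of 0.0166 missed the threshold. It passed with a correction for GC content, fitted without or with the replicate number (adjusted p = 0.00319 and 0.00301), without siCtrl replicate 2 and without siDDX41 replicate 3, and ranged from 0.00301 to 0.0578 over 18 alternative fits.

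BAK1, the effector among the 10 genes, was slightly higher after DDX41 knockdown. The siCtrl replicates 1 to 5 gave 27.3, 28.5, 26.4, 27.1 and 28.2 CPM, against 32.2, 29.8, 31.2, 31.1 and 31.4 CPM in siDDX41 replicates 1 to 5. The groups did not overlap, though siDDX41 replicate 2 stood close to the control range. The mean rose from 27.5 ± 0.867 to 31.2 ± 0.853 CPM (SD, n = 5), a log2 fold change of 0.18 (SE 0.041, adjusted p = 3.37e-04). With a correction for GC content the log2 fold change was 0.28.

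Of the 6 BH3-only genes, BMF and BCL2L11 fell, BID and PMAIP1 rose, and BIK and BAD did not pass. These counts lie near the shares over all tested genes, 30.3% higher and 32.1% lower. BMF encodes a protein that is held at the cytoskeleton in healthy cells and binds pro-survival proteins once released. It was measured at 44.6, 41.4, 48.1, 42.3 and 44.4 CPM in siCtrl replicates 1 to 5. In siDDX41 replicates 1 to 5 it was measured at 10.5, 15.7, 11.5, 12.2 and 13.5 CPM. The groups were separated by a wide gap, with siDDX41 replicate 2 the highest of its group. The mean fell from 44.2 ± 2.59 to 12.7 ± 2.01 CPM (SD, n = 5), which left 28.7% of the control level. The log2 fold change was -1.80 (SE 0.076, adjusted p = 4.93e-13), and 97.9% of tested genes had a smaller absolute change.

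BCL2L11 encodes BIM, which can bind every pro-survival protein and can engage effectors directly. Its level in siCtrl replicates 1 to 5 was 67.6, 66.9, 75.0, 68.0 and 71.0 CPM. The 5 siDDX41 replicates gave, in the same order, 47.3, 49.7, 47.7, 47.0 and 47.4 CPM. The knockdown libraries were tightly grouped, and all lay below the control range. The mean fell from 69.7 ± 3.37 to 47.8 ± 1.10 CPM (SD, n = 5), a log2 fold change of -0.54 (SE 0.036, adjusted p = 6.33e-14), larger in size than that of 75.5% of tested genes. Of its exon bases, 10.8% overlap the long non-coding RNA gene MIR4435-2HG on the opposite strand, whose counts were 190.4% of those of BCL2L11 and had a log2 fold change of 0.08.

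BID encodes a protein that is cleaved by CASP8 and carries the death receptor signal to mitochondria. The siCtrl replicates 1 to 5 gave 23.5, 23.5, 19.7, 23.2 and 21.2 CPM, against 28.2, 27.8, 28.5, 28.5 and 31.1 CPM in siDDX41 replicates 1 to 5. All knockdown libraries lay above the control range, with siDDX41 replicate 5 the highest. The mean rose from 22.2 ± 1.70 to 28.8 ± 1.29 CPM (SD, n = 5), a log2 fold change of 0.38 (SE 0.051, adjusted p = 1.53e-07).

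PMAIP1 encodes NOXA, a BH3-only protein whose main partner is MCL1. It was measured at 76.5, 73.9, 69.4, 71.4 and 73.7 CPM in siCtrl replicates 1 to 5. Values in siDDX41 replicates 1 to 5 were 87.9, 74.3, 85.9, 88.1 and 74.2 CPM. Replicates 1, 3 and 4 of the knockdown lay above every control library, whereas replicates 2 and 5 lay inside the control range. The mean was 73.0 ± 2.67 CPM in siCtrl and 82.1 ± 7.20 CPM in siDDX41 (SD, n = 5), a log2 fold change of 0.17 (SE 0.048, adjusted p = 0.00423). A two-sided exact permutation test of log2 CPM gave p = 0.0397, where 0.00794 is the smallest p that 5 against 5 libraries allow. The call was lost in 7 of 18 alternative fits: both corrections for GC content, and without siCtrl replicate 3, siCtrl replicate 4, siDDX41 replicate 1, siDDX41 replicate 3 or siDDX41 replicate 4. The adjusted p ranged from 2.81e-06 to 0.0300 and the log2 fold change from 0.13 to 0.21 over the 18 fits.

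BAD, whose protein binds BCL2 and BCL-XL unless it is phosphorylated, was measured at 22.5, 27.8, 19.3, 21.3 and 22.8 CPM in siCtrl replicates 1 to 5. The knockdown replicates, from 1 to 5, stood at 20.2, 17.8, 20.6, 20.1 and 20.5 CPM. The groups overlapped, with siCtrl replicate 2 the highest and siDDX41 replicate 2 the lowest of the 10 libraries. The log2 fold change was -0.20, with a 95% interval from -0.37 to -0.02, and the adjusted p was 0.0305. Without siCtrl replicate 2 the log2 fold change was -0.11. BAD passed with a correction for GC content, without a filter on low counts and without siCtrl replicate 3 (adjusted p = 0.00135). With the replicate number added to the correction for GC content it did not pass (adjusted p = 0.0145). The adjusted p of BAD ranged from 9.17e-04 to 0.0889 over 18 alternative fits. Of the exon bases of BAD, 23.7% (of 1708 in all) overlap GPR137 on the opposite strand, whose counts were 257% of those of BAD, with a log2 fold change of 0.02.

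BIK, a BH3-only protein of the endoplasmic reticulum, was near the limit of detection. It received 16 to 40 counts per siCtrl library and 16 to 39 per siDDX41 library. Its level was 0.898, 1.63, 0.673, 1.33 and 0.916 CPM in siCtrl replicates 1 to 5, and 1.56, 0.695, 1.57, 1.02 and 0.894 CPM in siDDX41 replicates 1 to 5. The groups overlapped throughout, and the log2 fold change of 0.08 had a 95% interval from -0.49 to 0.64 (adjusted p = 0.791). Leaving out siCtrl replicate 3, siDDX41 replicate 1 or siDDX41 replicate 3 turned its sign, to -0.055, -0.046 and -0.070, and the adjusted p ranged from 0.308 to 0.969 over the 18 alternatives.

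**Figure D2:**
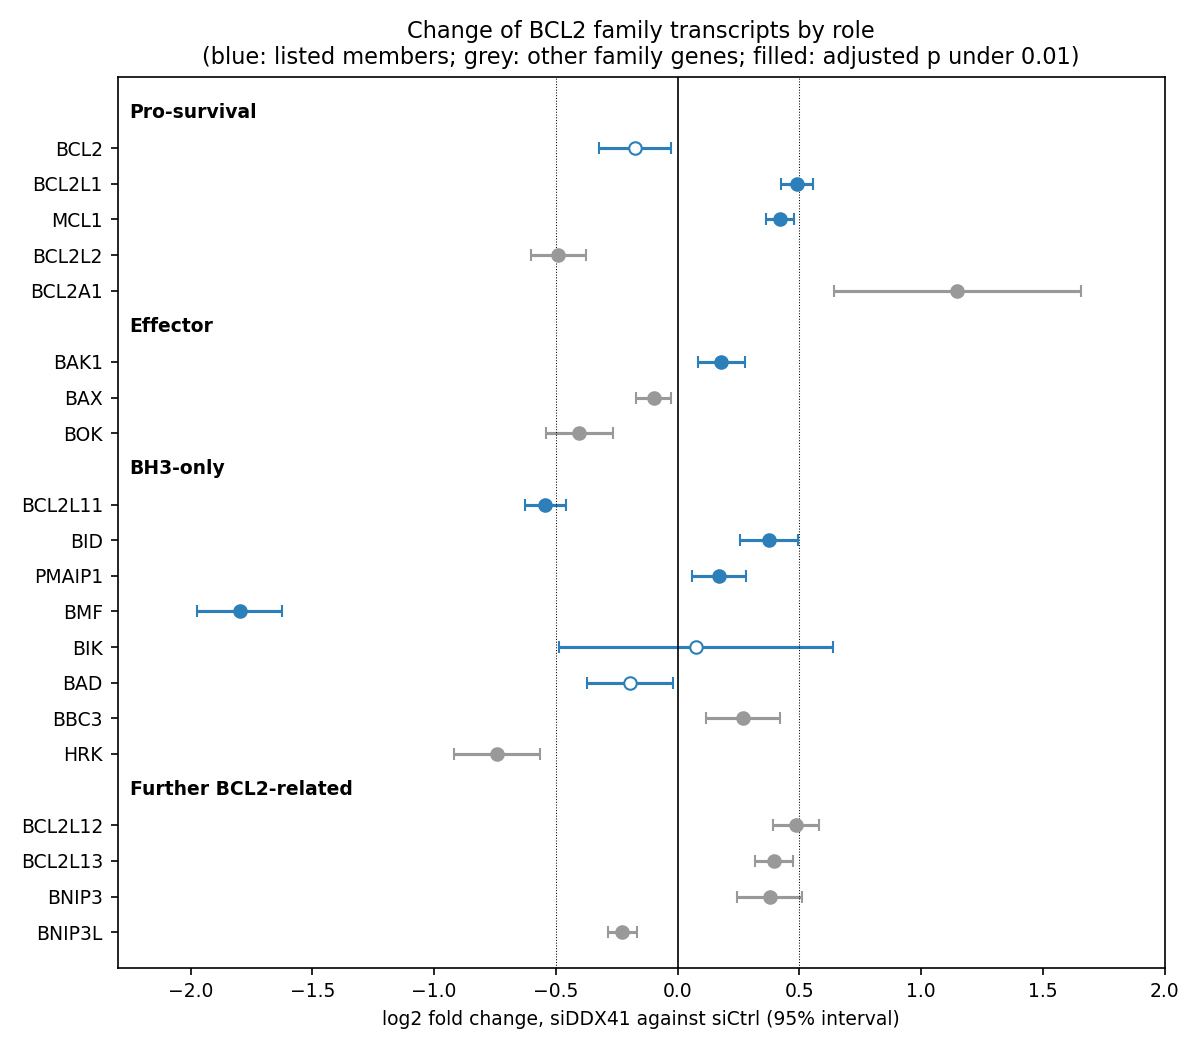
Log2 fold change of siDDX41 against siCtrl (horizontal axis) with its 95% interval for the 10 listed genes (blue) and 10 further family genes (grey), ordered by role. Filled points have an adjusted p under 0.01 and dotted lines mark 0.5 and -0.5; BMF lies at -1.80, and BCL2L1 and MCL1 lie at 0.49 and 0.42.

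To compare levels between genes, CPM was divided by the length of all exons of a gene in kilobases. In siCtrl, BCL2L1 at 49.3 ± 1.72 and MCL1 at 47.2 ± 0.888 CPM per kilobase (SD, n = 5) were the most abundant of the 10 transcripts and overlapped in range. PMAIP1 followed at 33.4 ± 1.22 CPM per kilobase. BAD at 13.3 ± 1.83 and BAK1 at 12.4 ± 0.392 CPM per kilobase overlapped, and BCL2L11 at 10.3 ± 0.50, BMF at 8.11 ± 0.475 and BID at 5.03 ± 0.385 CPM per kilobase stood apart from each other. BCL2 at 1.15 ± 0.067 and BIK at 1.15 ± 0.404 CPM per kilobase were the least abundant and did not differ beyond their spread. Much of this order depends on the length used. With the MANE Select transcript length in place of all exons, BCL2L1 and MCL1 no longer overlapped, BAD at 24.5 ± 3.36 stood apart from BAK1 at 12.7 ± 0.399, and BCL2 at 2.11 ± 0.12 stood above BIK. BAK1 then overlapped BCL2L11 at 13.7 ± 0.662, and BMF at 9.41 ± 0.551 overlapped BID at 10.2 ± 0.782 CPM per kilobase.

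In siDDX41 the level of BCL2L1 was 69.1 ± 2.07 CPM per kilobase and stood above that of MCL1 at 63.2 ± 1.07, with either length. BMF, at 2.33 ± 0.368 CPM per kilobase, stood below BID at 6.52 ± 0.292 with either length, whereas in siCtrl it stood above BID only with the length of all exons. BCL2L11 at 7.09 ± 0.163 CPM per kilobase overlapped BID at the edge of their ranges, and with the MANE Select length it stood below BID.

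Summed over the 3 pro-survival genes, the level was 98.1, 97.9, 96.2, 99.7 and 96.2 CPM per kilobase in siCtrl replicates 1 to 5. In siDDX41 replicates 1 to 5 the sum was 134, 132, 133, 134 and 134 CPM per kilobase. The pro-survival sum was thus higher in every knockdown library, at 133 ± 1.17 against 97.6 ± 1.47 CPM per kilobase (SD, n = 5). Summed over the 6 BH3-only genes, the level was 72.6, 74.6, 68.2, 69.6 and 71.5 CPM per kilobase in siCtrl and 69.0, 61.7, 68.6, 68.8 and 63.4 CPM per kilobase in siDDX41. The BH3-only sums overlapped, with means of 71.3 ± 2.51 and 66.3 ± 3.49 CPM per kilobase (SD, n = 5).

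The linear ratio of pro-survival to BH3-only sums was 1.35, 1.31, 1.41, 1.43 and 1.35 in siCtrl replicates 1 to 5, and 1.94, 2.13, 1.93, 1.95 and 2.12 in siDDX41 replicates 1 to 5. The ratio was higher in every knockdown library than in any control library, with means of 1.37 ± 0.0495 and 2.02 ± 0.103 (SD, n = 5). On the log2 scale the difference of the means was 0.56, given as a description without a test because the genes were chosen. BCL2L1 and MCL1 made up nearly all of the pro-survival sum, MCL1 alone 48.4% in siCtrl and 47.4% in siDDX41. PMAIP1 made up 46.8% of the BH3-only sum in siCtrl and 56.5% in siDDX41, and without it the log2 difference was 0.85. The ratio compares transcripts, and protein levels were not analysed here.

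**Figure D3:**
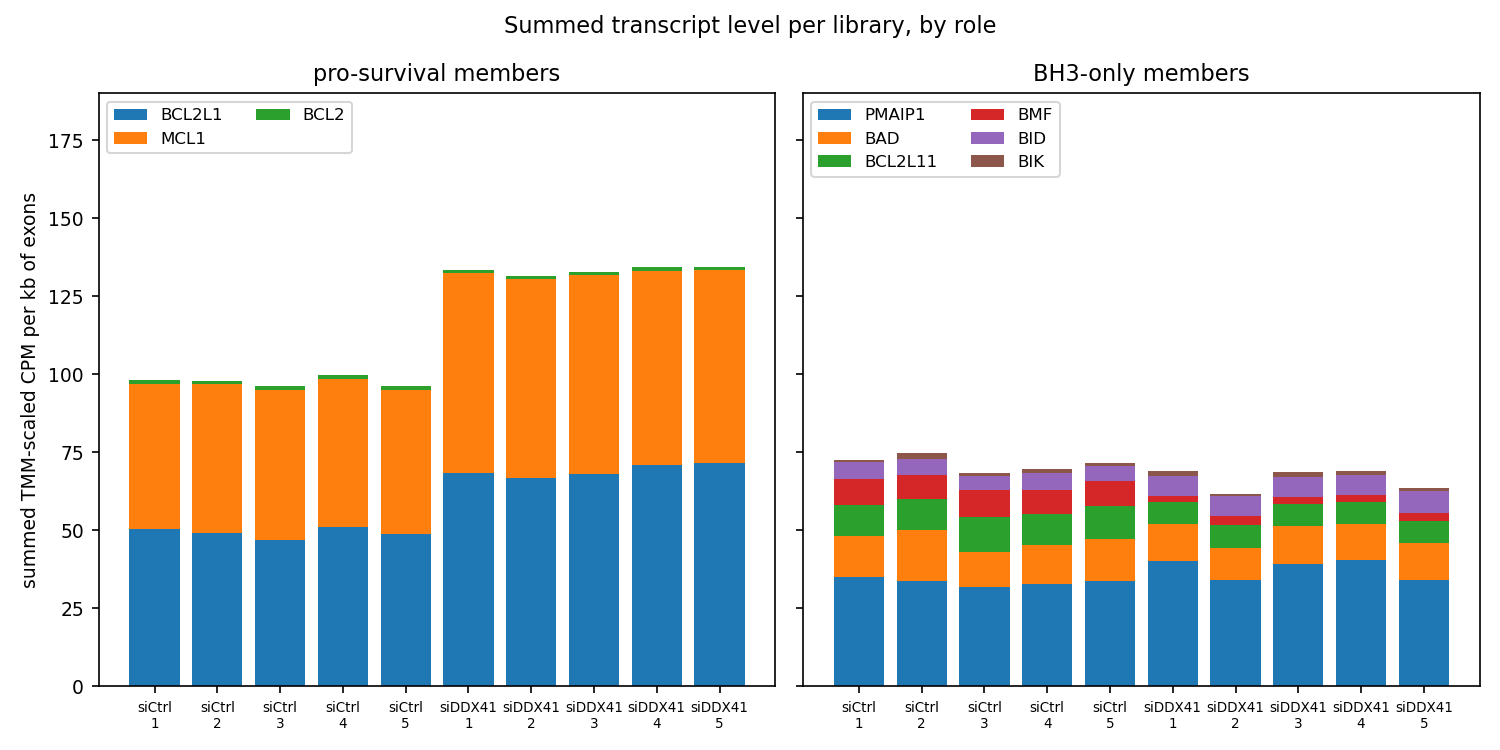
Summed level of the 3 pro-survival genes (left) and the 6 BH3-only genes (right) in each library, in TMM-scaled CPM per kilobase of exons (vertical axis, from 0), stacked by gene. The pro-survival sums are higher in all 5 siDDX41 libraries, and in the BH3-only bars the BMF and BCL2L11 segments are smaller in siDDX41.

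Ratios within a library were also taken for pairs of known binding partners, again per kilobase and without a test. The log2 ratio of BCL2L11 to MCL1 was -2.19 ± 0.065 in siCtrl and -3.16 ± 0.032 in siDDX41 (SD, n = 5), a difference of -0.96. That of PMAIP1 to MCL1 was -0.50 ± 0.076 and -0.76 ± 0.12, a difference of -0.25. That of BAD to BCL2L1 differed by -0.68, and that of BAK1 to MCL1 by -0.24. In these 4 pairs the ratio was lower in every knockdown library than in any control library. Both partners, MCL1 and BCL2L1, were themselves higher after knockdown (log2 fold changes of 0.42 and 0.49). PMAIP1 and BAK1 were also higher (0.17 and 0.18), by less than MCL1. Of single tested genes, 26.7% were higher and 29.3% lower without overlap, and no such share was taken for ratios. The ratio of BID to BCL2L1 differed by -0.11 and overlapped between groups.

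The rest of the family was read from a list of 13 further genes, of which 10 were tested, 5 higher and 5 lower, with a median log2 fold change of 0.08. Among pro-survival genes, BCL2L2, which encodes BCL-W, fell from 34.7 ± 2.09 to 24.7 ± 1.44 CPM (SD, n = 5; log2 fold change -0.49, adjusted p = 3.50e-10). It shares 16.8% of its exon bases with the read-through gene BCL2L2-PABPN1, whose counts were 0.455% of its own, and 6.51% with PPP1R3E on the opposite strand, whose log2 fold change was -0.42. BCL2A1, a pro-survival gene known as a target of NF-kB, was higher, from 0.400 ± 0.063 to 0.892 ± 0.111 CPM (log2 fold change 1.15, adjusted p = 3.51e-05), on 8 to 12 counts per siCtrl library and 17 to 25 per siDDX41 library. Of 5 pro-survival genes tested, 3 were higher, 1 was lower and BCL2 did not pass. Among all tested genes, 30.3% were higher and 32.1% were lower.

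Of the other effector genes, BOK fell from 95.7 ± 8.87 to 72.3 ± 4.18 CPM (SD, n = 5; log2 fold change -0.40, adjusted p = 3.10e-05). BAX, the close relative of BAK1, was at 139 ± 5.47 CPM in siCtrl and 130.2 ± 4.28 CPM in siDDX41 and overlapped between groups (log2 fold change -0.10, adjusted p = 0.00615). The BAX call was lost in 11 of 18 alternative fits, and with a correction for GC content the log2 fold change was -0.01.

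Among the other BH3-only genes, HRK fell from 10.4 ± 1.14 to 6.19 ± 0.163 CPM (SD, n = 5; log2 fold change -0.74, adjusted p = 9.62e-10), without overlap. BBC3, which encodes PUMA, rose from 13.0 ± 1.00 to 15.6 ± 1.43 CPM (log2 fold change 0.27, adjusted p = 7.12e-04), with overlap between groups. Over all 8 BH3-only genes, 3 were higher, 3 were lower and 2 did not pass, beside 30.3% higher and 32.1% lower of all tested genes.

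The more distant relatives BCL2L12, BCL2L13 and BNIP3 had log2 fold changes of 0.49, 0.40 and 0.38. The mitophagy receptor gene BNIP3L fell by 0.23 on the log2 scale. None of these 4 overlapped between groups, beside 26.7% higher and 29.3% lower without overlap over all tested genes. BCL2L12 shares 25.9% of its exon bases with IRF3 on the opposite strand, whose log2 fold change was 0.36, and BNIP3L shares 7.95% with PNMA2 on the opposite strand, whose log2 fold change was -0.54; such shared bases leave the values of these genes uncertain. BCL2L14 had 0 counts in every library, BCL2L10 had at most 3, and BCL2L15 had at most 7, and these 3 genes were not tested. Over the 23 family genes, 10 were higher, 7 were lower, 3 did not pass and 3 were not tested. The shares over all tested genes were 30.3% higher and 32.1% lower.

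**Figure D4:**
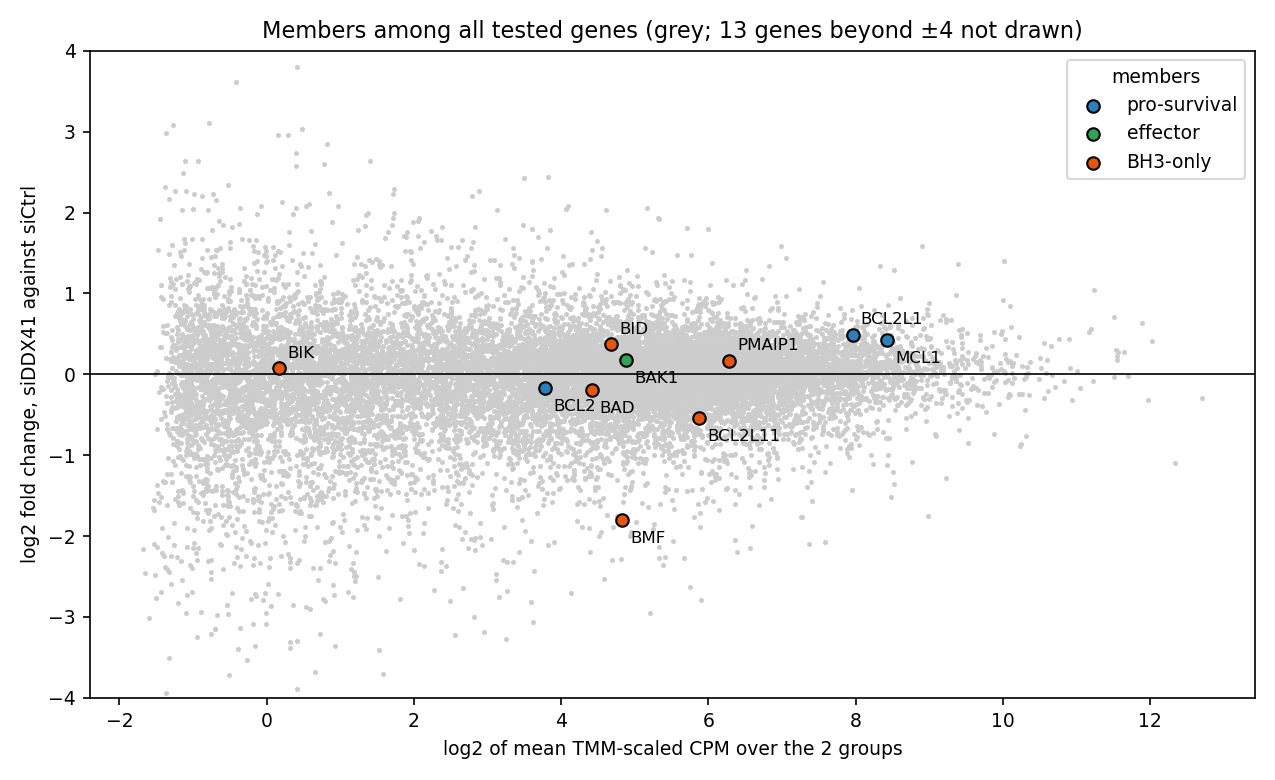
Log2 fold change of siDDX41 against siCtrl (vertical axis) against the log2 of mean TMM-scaled CPM (horizontal axis) for all tested genes (grey, 13 beyond 4 in size not drawn) and the 10 BCL2 family genes, coloured by role. Most of the family lies inside the grey cloud at its own expression level, and BMF lies near its lower edge.

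Downstream of the pore, genes of the caspases and the apoptosome changed in both directions. CYCS, which encodes the cytochrome c released through the pore, fell from 185 ± 7.70 to 102 ± 5.73 CPM (SD, n = 5; log2 fold change -0.86, adjusted p = 3.55e-18). CASP9, the initiator caspase that cytochrome c activates through APAF1, fell from 15.2 ± 0.829 to 8.84 ± 0.874 CPM (log2 fold change -0.78, adjusted p = 1.46e-11). CASP2 and CASP6 were also lower, whereas APAF1 and CASP8 were higher, and CASP10 did not pass.

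Of 8 inhibitor of apoptosis (IAP) genes and their antagonists, 7 were tested, 4 higher, 1 lower and 2 not passing, with a median log2 fold change of 0.14. BIRC3, which encodes the ubiquitin ligase cIAP2, rose from 9.62 ± 0.924 to 32.7 ± 1.89 CPM (SD, n = 5; log2 fold change 1.76, adjusted p = 6.64e-21). BIRC2, XIAP and HTRA2 were higher by less than 0.5 on the log2 scale and BIRC5 was lower, and the XIAP call was lost in 10 of 18 alternative fits.

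In the death receptor arm, which reaches mitochondria through BID, 7 of 8 genes were tested, 4 higher, 1 lower and 2 not passing, with a median log2 fold change of 0.23. RIPK1, the kinase that joins the TNF receptor to survival or death signalling, fell from 54.3 ± 2.49 to 35.9 ± 1.52 CPM (SD, n = 5; log2 fold change -0.60, adjusted p = 7.09e-14). The genes that were higher were FAS, TNFRSF1A, FADD and CFLAR.

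Ubiquitin ligases, their partners and a deubiquitinase set the turnover of the MCL1 and NOXA proteins. Of 9 such genes, 4 were higher, 2 were lower and 3 did not pass, with a median log2 fold change of 0.08. FBXW7, a receptor that can direct MCL1 to the proteasome, rose from 47.1 ± 2.61 to 72.7 ± 1.85 CPM (SD, n = 5; log2 fold change 0.63, adjusted p = 4.25e-15). TRIM17, another ligase for MCL1, fell from 1.43 ± 0.273 to 0.711 ± 0.171 CPM (log2 fold change -1.0, adjusted p = 3.84e-05). USP9X, the deubiquitinase of MCL1, BTRC and RNF7 were also higher and UBE2F was lower, and the UBE2F call was lost in 7 of 18 alternative fits.

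Transcription factor genes known to act on BCL2 family promoters also changed in both directions. TP73 fell from 16.9 ± 1.71 to 9.22 ± 0.376 CPM (SD, n = 5; log2 fold change -0.88, adjusted p = 1.49e-12) and E2F1 from 55.4 ± 0.817 to 32.8 ± 1.42 CPM (log2 fold change -0.75, adjusted p = 5.62e-17). MYC rose from 64.4 ± 2.25 to 91.9 ± 3.27 CPM (log2 fold change 0.51, adjusted p = 3.91e-14) and ATF3 from 19.3 ± 1.74 to 27.3 ± 1.09 CPM (log2 fold change 0.50, adjusted p = 1.78e-09). FOXO1, ATF4 and JUN were higher, each by less than 0.5 on the log2 scale. FOXO3, a known activator of BCL2L11, was at 36.4 ± 2.11 CPM in siCtrl and 38.8 ± 1.37 CPM in siDDX41 and did not pass (adjusted p = 0.0563), except with both corrections for GC content (adjusted p = 0.00604 and 0.00582).

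The outer membrane channel genes VDAC1, VDAC2 and VDAC3 all changed by small amounts, 2 higher and 1 lower, with a median log2 fold change of 0.11. VDAC3 was at 166 ± 1.51 CPM in siCtrl and 179 ± 7.75 CPM in siDDX41 (SD, n = 5; log2 fold change 0.11, adjusted p = 0.00136), with overlap between groups, and its call was lost with both corrections for GC content. The VDAC1 call was lost in 5 of 18 alternative fits. The counts of calls in these lists were read against 30.3% higher and 32.1% lower of all tested genes.

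Outside these lists, genes most like BCL2L1 in log2 CPM over the 10 libraries were MXRA7, ILK and CDKN1A, with Pearson correlations of 0.999, 0.998 and 0.997. Among those most like BCL2L11 were SLC26A2 and ZNF618, with correlations of 0.997 and 0.996. Both sets of values include the difference between the groups: with the group means removed, the correlations were 0.975, 0.924 and 0.906 for BCL2L1 and 0.897 and 0.873 for BCL2L11. They are among the highest of many genes compared over 10 libraries that share their depth and processing.

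Across 18 alternative fits, BCL2L1, MCL1, BAK1, BCL2L11, BID and BMF kept their direction and stayed past the threshold in each, whereas BCL2, PMAIP1, BIK and BAD did not.

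**Figure D5:**
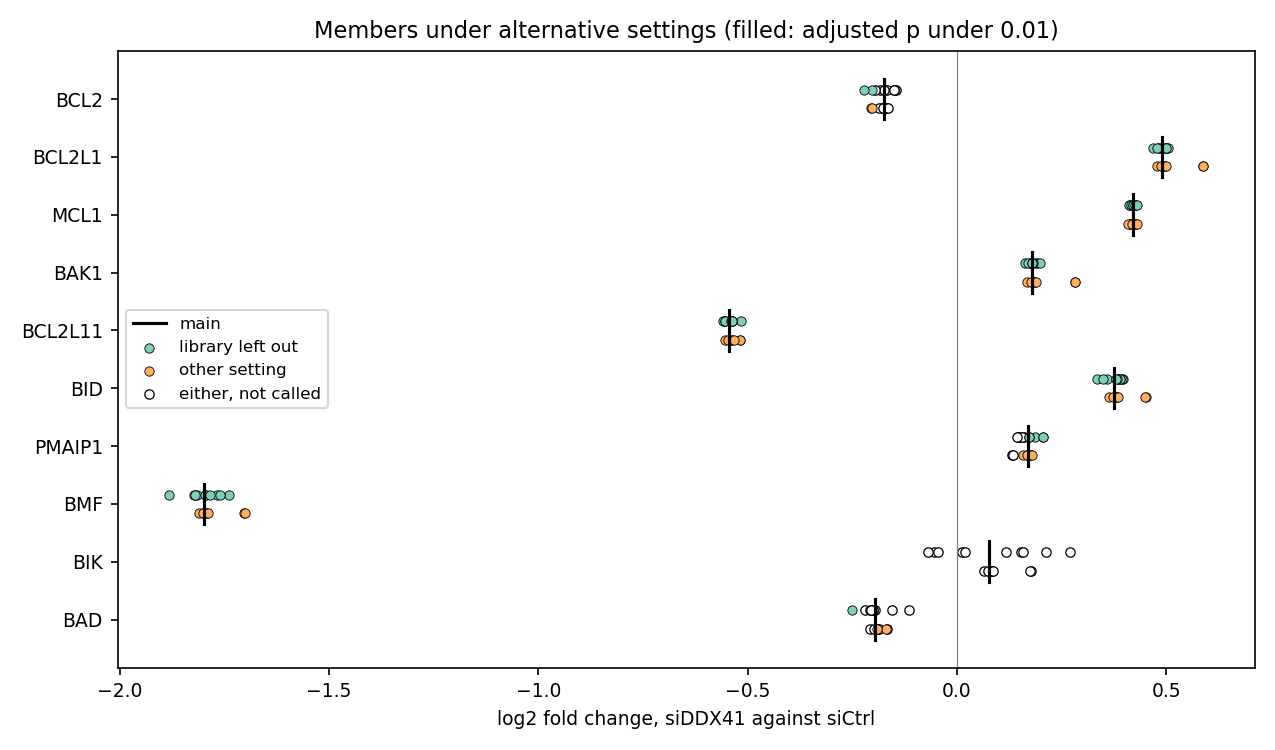
Log2 fold change of the 10 BCL2 family genes (horizontal axis) in the fit reported here (black line), with each library left out in turn (green, upper row) and under 8 other settings (orange, lower row). White points did not pass an adjusted p under 0.01; PMAIP1, BCL2 and BAD have both filled and white points, and BIK crosses 0.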

How the data were processed

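The authors made strand-specific libraries from polyadenylated RNA of U2OS cells and read 84 bases from 1 end of each fragment. Per the submitters' processing notes and the study's methods, reads were demultiplexed with bcl2fastq 2.19, aligned to hg38 with STAR 2.7 under GENCODE release 25, and counted with featureCounts 1.6. The deposited values are raw read counts per gene, 1 file per sample. The strand and multi-mapping settings of the counting are not given in the sources used here. Whether reads of genes that overlap on opposite strands were counted apart is therefore not known.

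Gene names, exon lengths and transcript sequences came from GENCODE release 44 (GRCh38), which gave values for 98.7% of tested genes. Counts were filtered with filterByExpr, scaled by TMM and tested with edgeR 4.0.16 (robust quasi-likelihood test, group only, Benjamini-Hochberg over 16143 genes, called at an adjusted p under 0.01) in R 4.3.3. The 95% intervals are the log2 fold change plus or minus its SE times the t quantile for 8 degrees of freedom. Alternatives were DESeq2 1.42.0, other scalings, filters and thresholds, a lowess correction for GC content, a replicate block, and each library left out in turn. The length of the MANE Select transcript was added as an alternative after the data were seen. The procedure was run on simulated counts with 100 genes changed 1.25-fold and 100 changed 1.5-fold. It recovered 91 and 100 of these, with 2 false calls. Far fewer genes were changed there than the 30.3% higher and 32.1% lower called in these data. The simulation therefore cannot show how the scaling behaves when so many genes change.

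The members and lists were chosen with earlier results of these data known. The genes named were the 10 members, DDX41, every other family gene, in each other list the called genes with an absolute log2 fold change over 0.5 and the gene with the smallest adjusted p, and genes from the 3 most correlated with BCL2L1 and with BCL2L11 at 5 CPM or more. Some genes that met these rules, and the counts of 2 lists, are not reported here. Other genes of the lists were named after their values were seen. Replicates were compared pairwise within groups, and the chi-square per degree of freedom of their counts was 1.76 to 5.67 over 20 pairs, above sampling noise in each.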

Additional observations from a re-analysis of the deposited data

Results flagged for a closer look

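The 10 members, DDX41, the 10 further family genes tested and the ratio of pro-survival to BH3-only sums gave 44 groups of 5 libraries, and 4 of these held a library whose gap to its nearest neighbour, divided by the range of the group, exceeded Dixon's critical value at 95%. Chance alone flags about 1 in 20 groups. The other lists were not examined in this way. In siDDX41, BCL2L11 was 49.7 CPM in replicate 2 and 47.0 to 47.7 CPM in the others (ratio 0.744). BID was 31.1 CPM in siDDX41 replicate 5 and 27.8 to 28.5 CPM in the others (ratio 0.796). BAD was 17.8 CPM in siDDX41 replicate 2 and 20.1 to 20.6 CPM in the others (ratio 0.830). BOK was 65.1 CPM in siDDX41 replicate 1 and 73.2 to 76.2 CPM in the others (ratio 0.728). The BCL2L11, BID and BOK calls held with each of these libraries left out, and BAD passed in neither case.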

How the results depend on the processing

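Of 180 log2 fold changes of the 10 BCL2 family genes under 18 alternative fits, 163 kept their direction and their side of the threshold, 7 lost the call, 7 gained it and 3 changed sign. The 7 lost were all PMAIP1, the 7 gained were BCL2 and BAD, and the 3 that changed sign were BIK, which ranged from -0.070 to 0.27 with a library left out. CUL5, at 0.08, was at -0.0034 with either correction for GC content. With that correction 4 of the 10 genes were called higher and 4 lower, and 4 and 3 when the replicate block was added. Over all 16143 tested genes, 5175 were higher and 5167 lower with the correction, and 5061 and 5043 with the block added. At an adjusted p under 0.05, 5 of the 10 genes were called higher and 4 lower, against 5626 and 5794 of all tested genes. With a log2 fold change over 0.5, 1584 of all genes were called higher and 2534 lower, and 0 of the 10 genes higher; over 1, 410 were higher and 982 lower, with 0 of the 10 higher and 1 lower. The pro-survival to BH3-only log2 difference of 0.56 was 0.71 from CPM without length scaling and 0.85 without PMAIP1. The cause of these shifts was not tested. With the replicate block, 4790 genes were called higher and 5097 lower, with 5 and 2 of the 10 genes, and BMF had a log2 fold change of -1.80. Same-numbered libraries did not deviate together (correlations of -0.052 to 0.045), and 1 of 5 siCtrl libraries correlated best with its own number. Of 55 other listed genes, 46 kept direction and side of the threshold in every fit made. At 16 to 40 counts per library, the change of BIK was uncertain, with an interval of -0.49 to 0.64. This interval is not a limit of detection, which was not computed.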

Other observations

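Within siDDX41, replicates 2 and 5 had the lowest PMAIP1 and the highest BMF levels of the 5 libraries. PMAIP1 was 74.3 and 74.2 CPM in these libraries and 87.9, 85.9 and 88.1 CPM in replicates 1, 3 and 4. BMF was 15.7 and 13.5 CPM in replicates 2 and 5 and 10.5, 11.5 and 12.2 CPM in replicates 1, 3 and 4. DDX41 was 13.7 and 12.3 CPM in replicates 2 and 5 and 11.5, 12.4 and 11.2 CPM in the others. The pattern was noticed in these libraries and was not tested.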
